A study of Mus musculus with 20 samples.

Results

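A set of 10 genes of the kidney's sodium channel and corticosteroid response were followed across injury and 2 preventive treatments: the subunits of the epithelial sodium channel (Scnn1a, Scnn1b and Scnn1g), the corticosteroid receptors (Nr3c1 and Nr3c2), the enzymes that set local glucocorticoid levels (Hsd11b1 and Hsd11b2), the ubiquitin ligase that removes the channel (Nedd4l) and a pair of receptor target genes (Tsc22d3 and Fkbp5). They were chosen by name, with earlier results of these data known. They make up 10 of the 27827 gene names on the array, with 20 of its 41174 probes. RNA of whole kidneys of male C57BL/6 mice aged 8 to 12 weeks was hybridised to 20 arrays of 1 colour, 4 for each of 5 groups. Control mice had neither surgery nor drug, IRI mice had both renal pedicles clamped for 45 min with kidneys taken 6 h after reperfusion, and IRI+Hemin mice received hemin at 25 mg/kg, an inducer of heme oxygenase-1, 24 h before the same injury. IPC+IRI mice had a preconditioning ischemia of 15 min 7 days before the injury, and Hemin mice had the drug only. No group is labelled as sham-operated, so ischemia cannot be told apart here from the anesthesia and surgery that came with it.

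The epithelial sodium channel lets sodium enter principal cells of the distal nephron, where it is the rate-limiting step of hormone-regulated reabsorption. Aldosterone, through the mineralocorticoid receptor Nr3c2, raises the channel at the membrane by inducing Sgk1, a kinase that keeps Nedd4l from tagging the channel for removal. Cortisol and corticosterone bind the same receptor, and Hsd11b2 inactivates them in those cells, while Hsd11b1 regenerates active hormone elsewhere. The glucocorticoid receptor Nr3c1 drives Tsc22d3 (GILZ) and Fkbp5, and Fkbp5 in turn lowers the receptor's affinity for hormone.

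The genes below were read by probes of 60 bases, and 2 probe sequences are shown. The Scnn1a probe moved unlike the other probe of its gene in the comparisons given below, and the Fkbp5 probe was the one of its gene that did not pass in IRI vs Control. Both hold a reading frame without a stop codon over their whole length on the probe strand. The Scnn1a probe lies at chr6:125293072-125293276 on the plus strand of mm9, the build of the array annotation, and spans 205 genomic bases, more than its own length, as a probe across an intron does. The Fkbp5 probe lies at chr17:28574995-28575054 on the minus strand. They are written in lower case, 5′ to 3′, with no part marked.
Scnn1a A_52_P139395: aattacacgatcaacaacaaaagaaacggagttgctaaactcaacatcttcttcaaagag
Fkbp5 A_52_P481493: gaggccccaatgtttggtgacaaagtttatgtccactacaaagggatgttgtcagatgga

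Promoters of 300 bases, 250 before and 50 after a transcription start, were found in a RefSeq table of GRCm38.p6 for 6 of the 10 genes (Scnn1b, Scnn1g, Nr3c2, Hsd11b1, Tsc22d3 and Fkbp5), 8 promoters in all. They were searched for TGTTCT on either strand, the core motif of glucocorticoid receptor binding, and for the full palindromic element, in which AGAACA and TGTTCT stand 3 bases apart and which therefore contains the core motif. None of the 8 held the full element, which occurred in 0.00913% of 32851 promoters of that length. An element this rare would be missing from almost any 8 promoters, so its absence says nothing about these genes. The core motif occurred in 19% of all promoters and in 1 of the 8, a Tsc22d3 start. It is shown here because it holds the motif, and lies at chrX:140600473-140600772 on the minus strand. The core motif is in capitals, starting at position -185 from the start. Tsc22d3 has 3 starts in the table, and the arrays did not tell them apart.
Tsc22d3 promoter: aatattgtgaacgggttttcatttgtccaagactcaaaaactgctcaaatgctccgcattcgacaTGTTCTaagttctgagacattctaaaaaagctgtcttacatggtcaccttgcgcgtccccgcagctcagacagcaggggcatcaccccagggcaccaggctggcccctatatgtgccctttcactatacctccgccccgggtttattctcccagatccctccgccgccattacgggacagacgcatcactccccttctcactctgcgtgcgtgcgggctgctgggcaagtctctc

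Expression is given as log2 of the background-subtracted signal over the array's 75th percentile, so a value of 0 is that percentile, averaged over the probes of a gene. All 10 genes had values well above background on all 20 arrays. A gene was called different between groups at a Benjamini-Hochberg adjusted p below 0.05 over all genes tested, in a limma fit on all 20 arrays. Every group had a slide of its own, and slide and group cannot be told apart for that reason. The Control and IRI slides had the same scan day, the IRI+Hemin slide had its own, and those of IPC+IRI and Hemin shared one more, which leaves IRI vs Control as the single comparison of the study within a day.

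Between injured and uninjured kidneys 8, 7 and 6 of the 10 genes were called in either direction in the 3 comparisons that follow, where 51%, 44.4% and 56% of all genes tested were. In IRI vs Control, 5 of the 10 genes were higher (Nedd4l, Fkbp5, Tsc22d3, Hsd11b1 and Scnn1a), where 17.1% of all genes tested were, and 3 were lower (Nr3c1, Nr3c2 and Hsd11b2), where 33.9% of all genes were. In IRI+Hemin vs Hemin, which shares no array with that comparison, 5 were higher (Scnn1a, Scnn1g, Nedd4l, Tsc22d3 and Fkbp5; 16.5% of all genes) and 2 lower (Nr3c1 and Nr3c2; 27.9%). In IPC+IRI vs Control, 3 were higher (Scnn1g, Nedd4l and Fkbp5; 23.3%) and 3 lower (Nr3c1, Nr3c2 and Hsd11b2; 32.8%). The median log2 fold change of the 10 genes was 0.40, 0.23 and 0.02 in these 3 comparisons, beside -0.17, -0.15 and -0.09 over all genes tested. Because whole kidney was measured, fewer cells of a type and less RNA per cell cannot be told apart.

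In the other 3 comparisons 4, 3 and 3 of the 10 genes were called in either direction, where 44.4%, 44.1% and 36.1% of all genes tested were. In IRI+Hemin vs IRI, Scnn1g was higher, where 26.3% of all genes were, and Hsd11b2, Nedd4l and Tsc22d3 were lower, where 18.1% were. In IPC+IRI vs IRI, none was higher (26.3% of all genes) and Scnn1a, Hsd11b1 and Nedd4l were lower (17.8%). In Hemin vs Control, none was higher (18.5%) and Nr3c1, Nr3c2 and Hsd11b2 were lower (17.6%). Without adjustment for multiple tests, limma gave 0 of the 10 genes higher and 5 lower at p below 0.05 in IPC+IRI vs IRI, and 0 higher and 4 lower in Hemin vs Control. With normexp background correction the adjusted count higher was 1 in each (Scnn1g and Hsd11b1). The median log2 fold change of the 10 genes was -0.26, -0.30 and -0.30, beside 0.08, 0.09 and 0.06 over all genes tested. These comparisons share the IRI or the Control arrays with others, so their values are not independent of them.

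**Figure D1:**
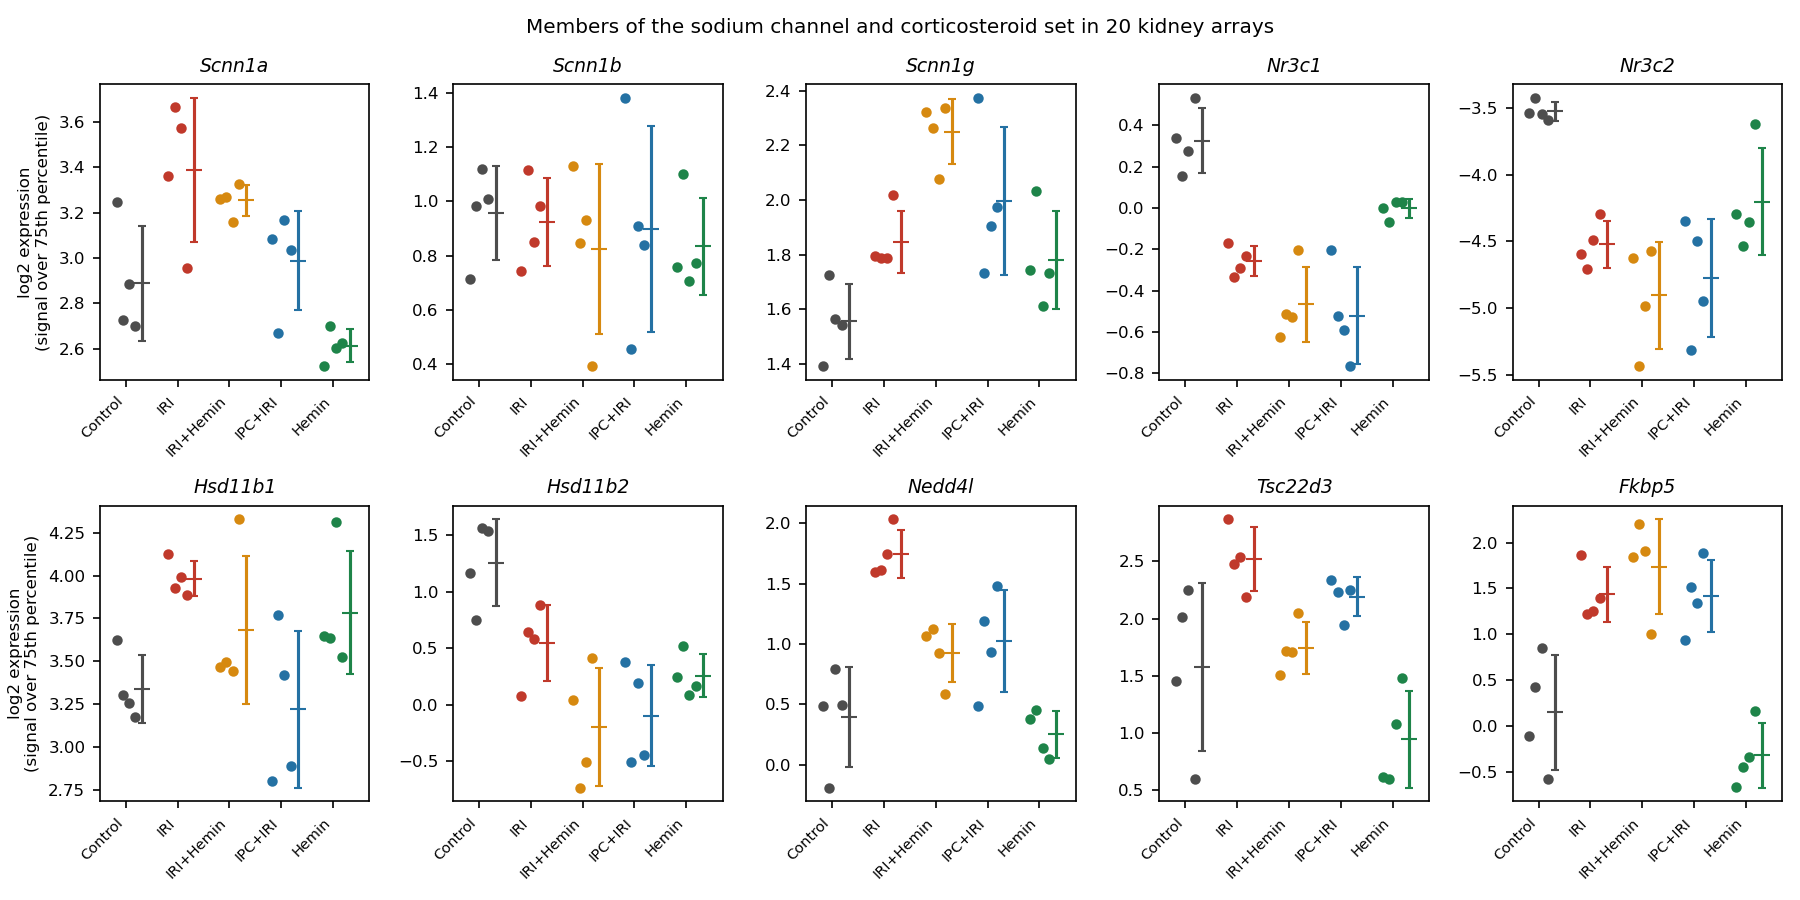
Log2 expression (signal over the array's 75th percentile, vertical axis, with its own scale per gene) of the 10 genes on each of 20 arrays, by group. Points are arrays, and the dash with its bar is the group mean ± SD (n = 4). Nedd4l reads highest in IRI, Fkbp5 is higher in all 3 injured groups than in Control and Hemin, and Nr3c1 and Nr3c2 are highest in Control.

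**Figure D2:**
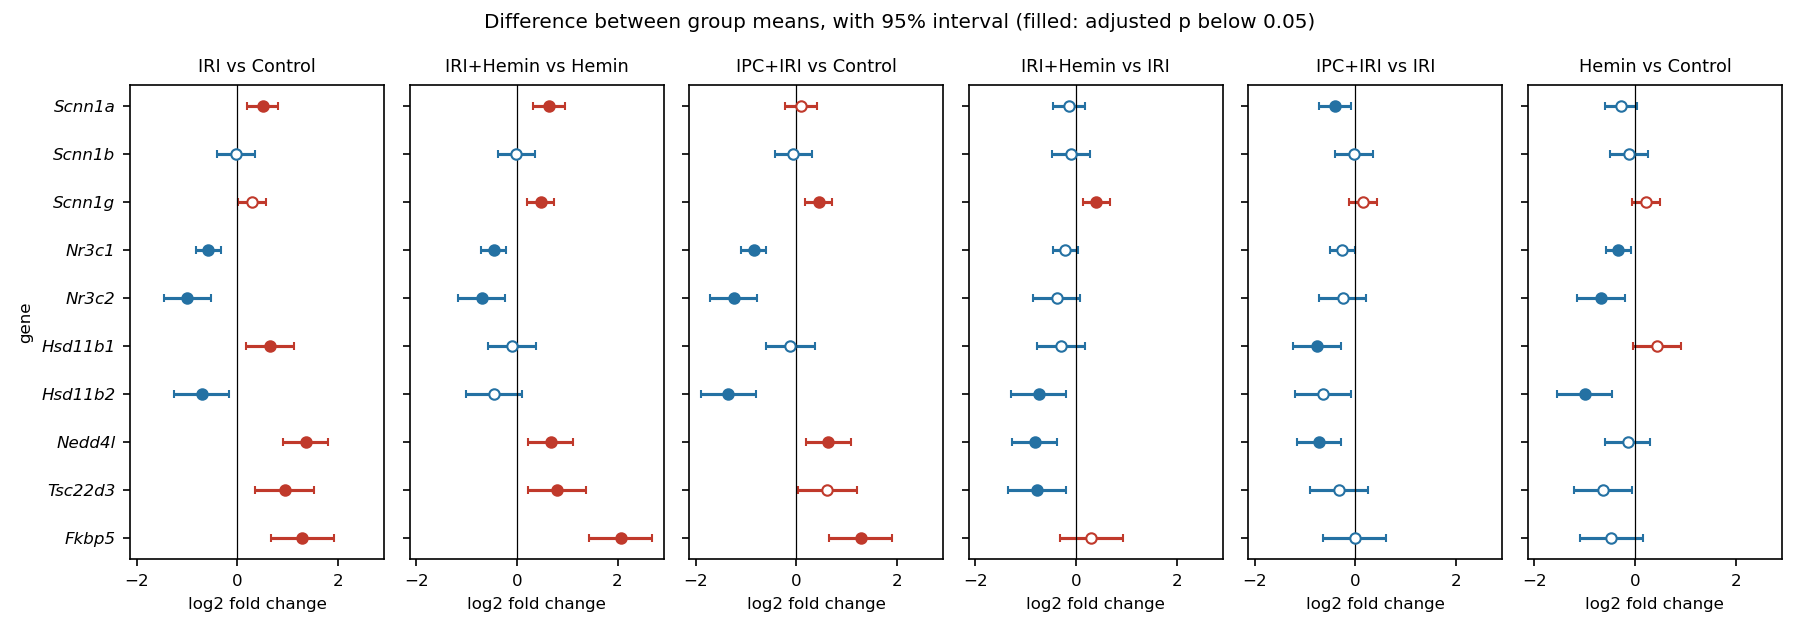
Log2 fold change (horizontal axis) of the 10 genes in 6 comparisons, with 95% confidence intervals from the limma fit. Filled points passed an adjusted p below 0.05, red is higher and blue lower. Scnn1b lies near 0 in every panel.

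Of the channel subunits, Scnn1a, which is required for the channel to reach the membrane, was higher in IRI and in IRI+Hemin than in their uninjured groups, but not in IPC+IRI. It read 3.25, 2.73, 2.89 and 2.70 in Control and 3.36, 3.67, 3.57 and 2.95 in IRI. It read 3.26, 3.27, 3.16 and 3.33 in the IRI+Hemin arrays, 3.08, 2.67, 3.17 and 3.03 in the IPC+IRI arrays and 2.52, 2.70, 2.60 and 2.63 in those given hemin alone. The IRI and Control arrays overlapped through IRI replicate 4 and Control replicate 1, while every IRI+Hemin array lay above every Hemin array. Scnn1a rose by 0.50 ± 0.15 (log2 fold change ± SE; adjusted p = 0.01) in IRI vs Control and by 0.64 ± 0.15 (adjusted p = 0.00249) in IRI+Hemin vs Hemin. IPC+IRI minus Control was 0.10 ± 0.15 (adjusted p = 0.598), passed without normalization between arrays (0.54, adjusted p = 0.0486) and turned to -0.85 with the mean of log2 over probes (adjusted p = 0.000493). It was lower in IPC+IRI than in IRI (-0.40 ± 0.15, adjusted p = 0.0381), with overlapping arrays. That last call was lost on leaving out IRI replicate 1, 2 or 3 or IPC+IRI replicate 2 or 4 (-0.29 to -0.42, adjusted p from 0.0535 to 0.127), and under 8 other settings, among them normexp background correction (-0.17, adjusted p = 0.4), no normalization between arrays (-0.08, adjusted p = 0.791), the deposited matrix (-0.26, adjusted p = 0.135) and a fit on only the arrays compared (adjusted p = 0.111). IRI+Hemin vs Hemin lost its call without normalization (0.56, adjusted p = 0.0613). IRI vs Control lost its call with normexp background correction, from the deposited log2 matrix and when only the compared arrays entered the fit (lowest value 0.31, highest adjusted p 0.142).

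Scnn1g, the gamma subunit, was highest in kidneys with hemin and injury. It read 1.39, 1.73, 1.57 and 1.54 in Control and 1.80, 1.79, 1.79 and 2.02 in IRI. It read 2.32, 2.26, 2.08 and 2.34 in the IRI+Hemin arrays, 2.37, 1.73, 1.91 and 1.97 in the IPC+IRI arrays and 1.74, 2.03, 1.61 and 1.73 in those given hemin alone. All IRI+Hemin arrays lay above all IRI, Hemin and Control arrays. The difference was 0.47 ± 0.13 against Hemin (adjusted p = 0.00739), 0.40 ± 0.13 between IRI+Hemin and IRI (adjusted p = 0.0175) and 0.44 ± 0.13 between IPC+IRI and Control (adjusted p = 0.00801). In IRI vs Control the 0.29 ± 0.13 did not pass (adjusted p = 0.0698), although the arrays did not overlap, and it passed without Control replicate 2 (0.35, adjusted p = 0.0435). The IRI+Hemin vs Hemin call was lost without normalization between arrays (0.39, adjusted p = 0.202).

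Scnn1b, the beta subunit, was not called in any comparison, nor in any alternative limma fit. Its group means lay between 0.83 in IRI+Hemin and 0.96 in Control, and the arrays of all groups overlapped, from 0.39 to 1.38. The largest difference was -0.12 in Hemin vs Control (95% interval -0.50 to 0.25), so a change of a size within that interval is not excluded. Alpha and gamma were called higher in IRI+Hemin vs Hemin and beta was not, but whether the subunits differed from each other was not tested.

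Both receptors were lower in the injured groups than in their uninjured ones. Nr3c1, the glucocorticoid receptor, read 0.34, 0.16, 0.28 and 0.53 in Control and -0.17, -0.34, -0.29 and -0.23 in IRI. It read -0.62, -0.51, -0.53 and -0.20 in the IRI+Hemin arrays, -0.20, -0.52, -0.59 and -0.77 in the IPC+IRI arrays and 0.00, -0.07, 0.03 and 0.03 in those given hemin alone. The Control arrays lay above all others, and the Hemin arrays lay between Control and the 3 injured groups without overlap. Nr3c1 fell by 0.58 ± 0.12 in IRI vs Control (adjusted p = 0.000561), by 0.46 ± 0.12 in IRI+Hemin vs Hemin (adjusted p = 0.00454) and by 0.85 ± 0.12 in IPC+IRI vs Control (adjusted p = 1.55e-05). Without normalization between arrays these were -0.46, -0.55 and -0.41 and none passed (adjusted p = 0.137, 0.084 and 0.15), and with normexp the first 2 were -0.40 and -0.21 (adjusted p = 0.0602 and 0.367). The 0.33 ± 0.12 lower mean in Hemin than in Control (adjusted p = 0.039) was lost without Control replicate 1, 3 or 4 or any single Hemin array (adjusted p from 0.0599 to 0.131), under normexp (-0.29, adjusted p = 0.151), in the deposited matrix (-0.26, adjusted p = 0.0907) and with no filter on dim genes (adjusted p = 0.054), and turned to 0.24 without normalization between arrays and to 0.01 with the brightest or the 3′-most probe. In IPC+IRI vs IRI the value of -0.27 did not pass (adjusted p = 0.0773), but did without IPC+IRI replicate 1 (-0.37, adjusted p = 0.0145).

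Nr3c1 had 4 probes, and they disagreed. The brightest, A_52_P138090, which is also the farthest towards the 3′ end, read 1.74 ± 0.10 (mean ± SD, n = 4) in Control and 1.75 ± 0.05 with hemin alone, against 1.11 ± 0.02 in IRI, 1.28 ± 0.18 in the IRI+Hemin arrays and 1.19 ± 0.23 in the IPC+IRI arrays. On this probe the 3 injured groups lay below both uninjured groups, Hemin minus Control was 0.01 ± 0.12 (adjusted p = 0.949), and neither treatment passed against IRI (0.17 ± 0.12 for hemin and 0.08 ± 0.12 for preconditioning, adjusted p = 0.251 and 0.572). The other 3 probes separated the groups another way. A_51_P355693 read -1.18 ± 0.85 in Control and -1.78 ± 0.41 in IRI, but -4.31 ± 0.44 in the IRI+Hemin arrays, -3.86 ± 0.20 in the IPC+IRI arrays and -3.41 ± 0.24 with hemin alone.

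On A_51_P355693 every array of IRI+Hemin, IPC+IRI and Hemin lay below every array of Control and IRI, and the same held for A_52_P254174 and for A_52_P63106. Against IRI these 3 probes were lower by 2.53, 1.67 and 0.89 in IRI+Hemin (adjusted p = 1.15e-05, 3.92e-05 and 0.00174), where 20.1% of all probes tested were lower. In IPC+IRI vs IRI they changed by -2.08, -1.44 and -0.91 (20% of probes lower), in IPC+IRI vs Control by -2.68, -1.86 and -1.26 (31.8%) and in Hemin vs Control by -2.23, -1.46 and -0.97 (18.4%), all with adjusted p below 0.05. In IRI vs Control, within 1 scan day, the brightest probe was lower (-0.63 ± 0.11, adjusted p = 0.000229; 30.9% of probes lower) and the other 3 did not pass (-0.60, -0.42 and -0.35). In IRI+Hemin vs Hemin the brightest (-0.47, adjusted p = 0.00328), A_51_P355693 (-0.90, adjusted p = 0.03) and A_52_P254174 (-0.63, adjusted p = 0.0441) were lower, where 25.4% of probes were, and A_52_P63106 did not pass (-0.28, adjusted p = 0.288). The split of these 3 probes follows scan day as well as treatment, and the part of scan day was not tested.

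One probe of Scnn1a split the groups in the same way. A_52_P139395, printed above, read -1.61, -2.72, -0.55 and -1.25 in Control and -1.19, -1.27, -1.09 and -0.52 in IRI. It read -3.51, -3.44, -3.49 and -3.29 in the IRI+Hemin arrays, -2.87, -3.62, -3.69 and -3.27 in the IPC+IRI arrays and -3.76, -3.89, -3.94 and -4.11 in those given hemin alone. No array of the last 3 groups reached any array of the first 2. Its difference was -2.42 in IRI+Hemin vs IRI (adjusted p = 1.3e-05) and -2.39 in Hemin vs Control (adjusted p = 6.73e-05), where the brighter Scnn1a probe A_51_P213691 gave -0.10 and -0.24 (adjusted p = 0.61 and 0.236). Over the 20 arrays its log2 expression had a Pearson r of 0.82 to 0.85 with the 3 dimmer Nr3c1 probes and of 0.34 with the other Scnn1a probe, a description over arrays that share slides.

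How often probes of a gene spread this far differed between comparisons. In Hemin vs Control the probes of Nr3c1 spread over 2.24 on the log2 fold change scale and those of Scnn1a over 2.15, and 0.947% and 1.17% of 6230 genes with over 1 tested probe spread as far or farther. The median spread of those genes was 0.46. In IRI+Hemin vs IRI the shares were 1.85% and 4.02% of 6121 genes, in IPC+IRI vs IRI 4.49% and 6.05% of 6016, and in IPC+IRI vs Control 5.39% and 7.44% of 6194. Over genes with several probes, the log2 fold change of an upstream probe minus that of the 3′-most one had a median of -0.04 in Hemin vs Control (53.2% of pairs lower upstream), -0.02 in IPC+IRI vs IRI (51.5%), 0.08 in IRI+Hemin vs IRI (45.2%) and 0.05 in IPC+IRI vs Control (46.6%). Averaging log2 values over probes, so that dim probes weigh as much as bright ones, made Nr3c1 and Scnn1a both lower in IRI+Hemin vs IRI (-1.23 and -1.26, adjusted p = 7.72e-05 and 3.02e-05), Nr3c1 lower in IPC+IRI vs IRI (-1.09, adjusted p = 0.00024) and Scnn1a lower in Hemin vs Control (-1.32, adjusted p = 9.12e-05), calls that the main values did not give. The Scnn1a value in Hemin vs Control also passed with quantile normalization (-0.43, adjusted p = 0.0148) and with the 75th percentile over bright probes (-0.39, adjusted p = 0.0362).

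**Figure D3:**
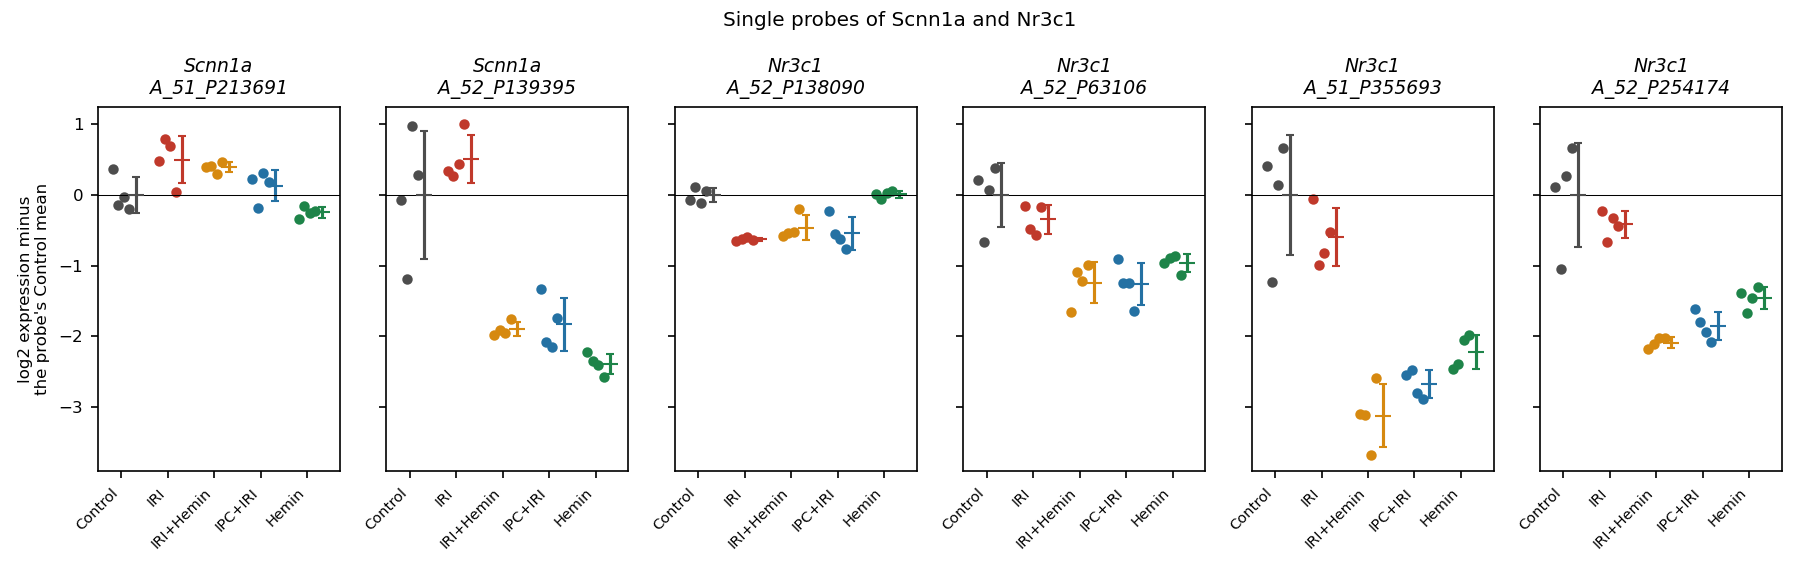
Log2 expression of 6 single probes minus the mean of the 4 Control arrays of the same probe (vertical axis), by group. Points are arrays, and the dash with its bar is the mean ± SD (n = 4). The brighter probes (A_51_P213691 and A_52_P138090) stay within 1 log2 unit of Control, while the other 4 lie about 1 to 3 units lower in IRI+Hemin, IPC+IRI and Hemin.

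Nr3c2, the mineralocorticoid receptor, was measurable on 1 of its 3 probes. That probe, A_52_P378137, read -2.09, -1.98, -2.06 and -2.12 in Control and -3.27, -3.43, -3.19 and -3.55 in IRI. It read -3.23, -4.25, -4.02 and -3.55 in the IRI+Hemin arrays, -2.95, -3.97, -3.28 and -3.65 in the IPC+IRI arrays and -3.06, -3.47, -3.02 and -2.39 in those given hemin alone. Every Control array lay above every other array. A_52_P264543 was well above background on 0 of 20 arrays and A_51_P377914 on 3, 1 each of IRI, IRI+Hemin and Hemin, so no fold is given for them. A_52_P378137 by itself was lower in IRI than in Control (-1.30 ± 0.24, adjusted p = 0.000235), and gave -0.78 in IRI+Hemin vs Hemin (adjusted p = 0.0139), -1.40 in IPC+IRI vs Control (adjusted p = 9.61e-05) and -0.92 in Hemin vs Control (adjusted p = 0.00649).

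With the 3 probes averaged, 2 of them at or near background, Nr3c2 fell by 1.00 ± 0.22 in IRI vs Control (adjusted p = 0.00119), by 0.70 ± 0.22 in IRI+Hemin vs Hemin (adjusted p = 0.0168) and by 1.25 ± 0.22 in IPC+IRI vs Control (adjusted p = 0.000149). It was also lower in Hemin than in Control (-0.68 ± 0.22, adjusted p = 0.0249). The IRI+Hemin vs Hemin call was lost without IRI+Hemin replicate 2 or Hemin replicate 4 (adjusted p = 0.0684 and 0.07), and the Hemin vs Control call without Control replicate 3 or Hemin replicate 1, 2 or 3 (adjusted p from 0.0503 to 0.0787). With normexp background correction all 4 calls were lost, at 0.05 in IRI vs Control (adjusted p = 0.936), -0.09 in IRI+Hemin vs Hemin (adjusted p = 0.899), -0.43 in IPC+IRI vs Control (adjusted p = 0.16) and -0.44 in Hemin vs Control (adjusted p = 0.177). The mean of log2 over probes ended the call in IRI vs Control (-0.22, adjusted p = 0.429) and turned Hemin vs Control to 0.05. IRI+Hemin vs Hemin was also lost with quantile normalization (-0.48, adjusted p = 0.0981) and in the deposited matrix (-0.79, adjusted p = 0.256), and Hemin vs Control without normalization (-0.11, adjusted p = 0.738).

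The enzymes moved in opposite directions in IRI. Hsd11b1 read 3.63, 3.31, 3.25 and 3.17 in Control and 4.13, 3.93, 3.99 and 3.89 in IRI. It read 3.47, 3.50, 3.44 and 4.33 in the IRI+Hemin arrays, 2.80, 3.77, 3.42 and 2.89 in the IPC+IRI arrays and 3.65, 3.64, 4.32 and 3.53 in those given hemin alone. IRI lay above Control and above IPC+IRI without overlap. Hsd11b1 rose by 0.64 ± 0.23 in IRI vs Control (adjusted p = 0.0252) and was lower in IPC+IRI than in IRI by 0.76 on the log2 scale (-0.76 ± 0.23, adjusted p = 0.0116). The first call was lost without Control replicate 3 or 4 or IRI replicate 1 (0.59 to 0.61, adjusted p from 0.0538 to 0.0631), and with quantile or bright-probe scaling or in the deposited matrix (0.46 to 0.56, adjusted p from 0.0505 to 0.107), and the second without normalization (-0.45, adjusted p = 0.225). In IRI+Hemin vs Hemin the value was -0.10 (adjusted p = 0.746), with 1 outlying array in each group (4.33 in IRI+Hemin and 4.32 in Hemin). The interaction of hemin with injury did not pass (-0.74 ± 0.32, adjusted p = 0.182).

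Hsd11b2, which shields the mineralocorticoid receptor from glucocorticoids, read 1.17, 0.75, 1.56 and 1.54 in Control and 0.08, 0.65, 0.58 and 0.88 in IRI. It read 0.04, -0.74, -0.50 and 0.41 in the IRI+Hemin arrays, 0.38, -0.51, 0.19 and -0.45 in the IPC+IRI arrays and 0.25, 0.52, 0.09 and 0.17 in those given hemin alone. Control lay above IRI+Hemin, IPC+IRI and Hemin without overlap, and overlapped IRI. Hsd11b2 had 1 probe, whose log2 expression over the 20 arrays had a Pearson r of 0.81 to 0.82 with the 3 dimmer Nr3c1 probes. With the Scnn1a probe A_52_P139395 the r was 0.68. The part of scan day in these values was not tested. Hsd11b2 fell by 0.71 ± 0.26 in IRI (adjusted p = 0.0308), by 1.35 ± 0.26 in IPC+IRI (adjusted p = 0.000306) and by 1.00 ± 0.26 in Hemin (adjusted p = 0.00697), each against Control. It was also lower in IRI+Hemin than in IRI (-0.74 ± 0.26, adjusted p = 0.0277). The IRI vs Control call was lost without Control replicate 3 or 4 or IRI replicate 1 or 3 (adjusted p from 0.0504 to 0.107), and the IRI+Hemin vs IRI call without IRI replicate 2, 3 or 4 or IRI+Hemin replicate 2 or 3 (adjusted p from 0.055 to 0.0977). Without normalization IRI vs Control (-0.59), IRI+Hemin vs IRI (-0.38) and Hemin vs Control (-0.43) lost their calls (adjusted p = 0.147, 0.321 and 0.225). IRI vs Control was also lost with normexp (-0.58, adjusted p = 0.0732), and IRI+Hemin vs IRI in the deposited matrix (-0.54, adjusted p = 0.106) and in a fit on only the arrays compared (adjusted p = 0.0568). IRI+Hemin vs Hemin gave -0.45 (adjusted p = 0.17; 0.0491 without IRI+Hemin replicate 4), and IPC+IRI vs IRI gave -0.64 (adjusted p = 0.0532; 0.0257 to 0.0454 without IRI replicate 1 or IPC+IRI replicate 1 or 3).

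Nedd4l, the ligase, was highest in IRI, and lower with either treatment. It read 0.48, -0.19, 0.79 and 0.49 in Control and 1.60, 1.62, 1.75 and 2.03 in IRI. It read 1.07, 1.13, 0.92 and 0.58 in the IRI+Hemin arrays, 0.49, 1.19, 0.94 and 1.48 in the IPC+IRI arrays and 0.38, 0.45, 0.14 and 0.04 in those given hemin alone. Every IRI array lay above every array of the other 4 groups. It rose 2.56-fold in IRI vs Control (1.36 ± 0.21, adjusted p = 4.74e-05) and 1.59-fold in IRI+Hemin vs Hemin (0.67 ± 0.21, adjusted p = 0.0161). IRI+Hemin was lower than IRI by 0.82 (-0.82 ± 0.21, adjusted p = 0.00448), and IPC+IRI was lower than IRI by 0.73 (-0.73 ± 0.21, adjusted p = 0.0102). Preconditioned injured kidneys still had a higher mean than Control (0.63 ± 0.21, adjusted p = 0.0174), with overlapping arrays. That call was lost without Control replicate 2 or IPC+IRI replicate 4 (0.44 and 0.48, adjusted p = 0.0703 and 0.0702). It was also lost with the 75th percentile taken over bright probes, in the deposited matrix and in a fit on only the arrays compared (0.52 to 0.63, adjusted p from 0.0613 to 0.0741). The IRI+Hemin vs Hemin and IPC+IRI vs IRI calls were lost with normexp, without normalization and in the deposited matrix (adjusted p from 0.0688 to 0.382), and the IRI+Hemin vs IRI call in the last 2 of these (adjusted p = 0.31 and 0.0628). The smaller rise with hemin was not called as an interaction (-0.68 ± 0.30, adjusted p = 0.187).

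Both receptor targets rose in IRI vs Control and in IRI+Hemin vs Hemin. Fkbp5 read -0.11, 0.43, 0.85 and -0.58 in Control and 1.86, 1.22, 1.26 and 1.40 in IRI. It read 1.84, 2.21, 1.90 and 1.01 in the IRI+Hemin arrays, 0.94, 1.51, 1.34 and 1.89 in the IPC+IRI arrays and -0.67, -0.45, -0.34 and 0.16 in those given hemin alone. All arrays of the 3 injured groups lay above all arrays of the 2 uninjured groups. Fkbp5 rose 2.44-fold in IRI vs Control (1.29 ± 0.30, adjusted p = 0.0016), 4.18-fold in IRI+Hemin vs Hemin (2.06 ± 0.30, adjusted p = 4e-05) and 2.42-fold in IPC+IRI vs Control (1.27 ± 0.30, adjusted p = 0.00156). These 3 calls held in every alternative limma fit. Neither treatment passed against IRI (0.30 ± 0.30 for hemin and -0.01 ± 0.30 for preconditioning, adjusted p = 0.429 and 0.975).

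The 3 Fkbp5 probes were called in 2 of the 3 injury comparisons, and 2 of them in all 3. A_51_P383689 and A_52_P337899 rose by 1.66 and 1.82 in IRI vs Control (adjusted p = 0.000484 and 0.00105), where 17.7% of all probes were higher. A_52_P481493, the probe printed above, ranged from -2.16 to 1.53 in Control, and its 0.82 did not pass (adjusted p = 0.269). In IRI+Hemin vs Hemin all 3 were called (2.06, 2.37 and 2.20; 18% of probes higher), and in IPC+IRI vs Control too (1.44, 1.28 and 1.48; 24.5%).

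Tsc22d3, which encodes the anti-inflammatory leucine zipper GILZ, read 1.45, 2.01, 2.25 and 0.60 in Control and 2.87, 2.48, 2.54 and 2.19 in IRI. It read 1.5, 1.71, 1.71 and 2.05 in the IRI+Hemin arrays, 2.34, 2.23, 1.94 and 2.25 in the IPC+IRI arrays and 0.62, 0.60, 1.08 and 1.48 in those given hemin alone. Control ranged from 0.60 to 2.25 and overlapped every other group. Tsc22d3 rose by 0.94 ± 0.28 in IRI vs Control (adjusted p = 0.00911) and by 0.80 ± 0.28 in IRI+Hemin vs Hemin (adjusted p = 0.0272), and was lower in IRI+Hemin than in IRI (-0.77 ± 0.28, adjusted p = 0.0307), with no overlap in the last 2. Without Control replicate 4 the IRI vs Control value was 0.61 and was still called. The IRI+Hemin vs Hemin call was lost without IRI+Hemin replicate 4 or Hemin replicate 1 or 2 (0.68 to 0.70, adjusted p from 0.0697 to 0.0805). The IRI+Hemin vs IRI call was lost without replicate 1, 2 or 3 of either group (-0.66 to -0.79, adjusted p from 0.0506 to 0.0902). All 3 calls were lost in the deposited matrix (0.73, 0.75 and -0.61, adjusted p = 0.0655, 0.071 and 0.134), the last 2 without normalization (0.72 and -0.41, adjusted p = 0.0601 and 0.243), and IRI+Hemin vs Hemin with the brightest or the 3′-most probe (0.51, adjusted p = 0.171 and 0.17).

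Values of Tsc22d3 that did not pass were 0.61 in IPC+IRI vs Control (adjusted p = 0.0703) and -0.64 in Hemin vs Control (adjusted p = 0.0822). The first passed without Control replicate 2 or 3 (adjusted p = 0.0372 and 0.0175), with normexp (0.64, adjusted p = 0.0371), without normalization (1.05, adjusted p = 0.00438) and with the mean of log2 over probes (0.70, adjusted p = 0.0349), and was 0.28, and not called, without Control replicate 4. The second passed without Control replicate 4 (-0.96, adjusted p = 0.00579) or Hemin replicate 4 (-0.81, adjusted p = 0.0388), with quantile normalization (-0.72, adjusted p = 0.049) and with the percentile over bright probes (-0.75, adjusted p = 0.0386), and was -0.07 without normalization. Its 3 probes correlated at r of 0.87 to 0.97 over the arrays. The dimmest, A_52_P600518, moved most in IRI vs Control, by 1.61 (adjusted p = 5.85e-05) against 0.78 and 0.79 for the others. By itself it also passed in IPC+IRI vs Control (1.12, adjusted p = 0.00127) and in Hemin vs Control (-0.90, adjusted p = 0.0115).

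The difference in injury response between mice with and without hemin was tested as an interaction. It was called for 0 of 10 genes, against 5.83% higher and 1.96% lower over all genes tested. Without adjustment 2 passed p below 0.05 in limma, both negative, Hsd11b1 and Nedd4l. With 4 arrays a group the 95% intervals reached from -1.43 to 1.67 log2 units over the 10 genes.

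A list of other glucocorticoid-induced genes was counted in the same way. This list and those that follow were chosen with earlier results of these data known, so their counts are descriptions. The list shares Sgk1 with that of channel regulators described after it. In IRI vs Control, 15 of the 22 tested (of 24 listed) were higher (17.1% of all genes) and 2 were lower (33.9%), with a median log2 fold change of 1.5 beside -0.17 over all genes. The counts were 17 higher and 1 lower in IRI+Hemin vs Hemin (median 1.64 beside -0.15; 16.5% and 27.9% of all genes) and 16 and 2 in IPC+IRI vs Control (median 1.61 beside -0.09; 23.3% and 32.8%). Against IRI, 3 were higher and 3 lower with hemin (26.3% and 18.1% of all genes), and 3 and 4 with preconditioning (26.3% and 17.8%). In Hemin vs Control 1 was higher and 3 lower (18.5% and 17.6%). The largest rises in IRI vs Control were those of Lcn2, an injury marker (5.06 ± 0.43), Pdk4, a switch of fuel use (4.00 ± 0.31), and the metallothionein Mt2 (3.54 ± 0.19). The 2 that fell were Tat, of tyrosine breakdown (-1.58 ± 0.33), and Klf15 (-1.06 ± 0.19). Many of the listed genes also answer to inflammation or stress, and the part of corticosteroids in their rise was not tested.

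Sgk1, the kinase between the receptors and the channel, read 1.66, 3.8, 3.04 and 1.51 in Control, 1.69, 1.95, 3.32 and 2.92 with hemin alone, and between 4.04 and 5.45 on all 12 arrays of injured kidneys. It rose 4.54-fold in IRI vs Control (2.18 ± 0.41, adjusted p = 0.00025), 6.64-fold in IRI+Hemin vs Hemin (2.73 ± 0.41, adjusted p = 5.05e-05) and 3.57-fold in IPC+IRI vs Control (1.84 ± 0.41, adjusted p = 0.000972). Per1, a clock gene with a glucocorticoid element, read 0.97, 1.30, 2.02 and -0.48 in Control and rose by 1.31 ± 0.41 in IRI (adjusted p = 0.0131). Klf9, a receptor-induced repressor, rose by 0.88 ± 0.12 in IRI vs Control (adjusted p = 1.67e-05), and was higher still in IRI+Hemin (0.45 ± 0.12 over IRI, adjusted p = 0.00695) and in IPC+IRI (0.52 ± 0.12 over IRI, adjusted p = 0.00282). Control replicate 4 was the lowest Control array for Fkbp5, Tsc22d3, Sgk1 and Per1, but for Klf9 it was replicate 2 (1.77, against 1.90 in replicate 4). For Fkbp5 this rested on the probe A_52_P481493 (-2.16 in replicate 4). Its other probes, A_51_P383689 and A_52_P337899, were lowest in replicate 2 (-0.16 and -1.93).

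The wider channel pathway had no single direction. Of 25 listed regulators, 24 were tested, with 6 higher and 4 lower in IRI vs Control (median 0.16 beside -0.17 over all genes; 17.1% and 33.9% of all genes were called), 8 and 4 in IRI+Hemin vs Hemin (0.18 beside -0.15; 16.5% and 27.9%) and 8 and 4 in IPC+IRI vs Control (-0.13 beside -0.09; 23.3% and 32.8%). In IRI vs Control, Sgk1, the serine protease Tmprss2 (1.35 ± 0.09) and Cnksr3 (0.87 ± 0.10), a scaffold of the channel complex, rose most. Kcnj1, the potassium channel ROMK (-1.63 ± 0.28), the kinase Wnk4 (-0.80 ± 0.23) and the channel-activating protease Prss8 (-0.67 ± 0.20) fell most. With hemin 4 were higher and 9 lower than in IRI (26.3% and 18.1% of all genes), with preconditioning 3 and 8 (26.3% and 17.8%), and in Hemin vs Control 2 and 7 (18.5% and 17.6%).

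**Figure D4:**
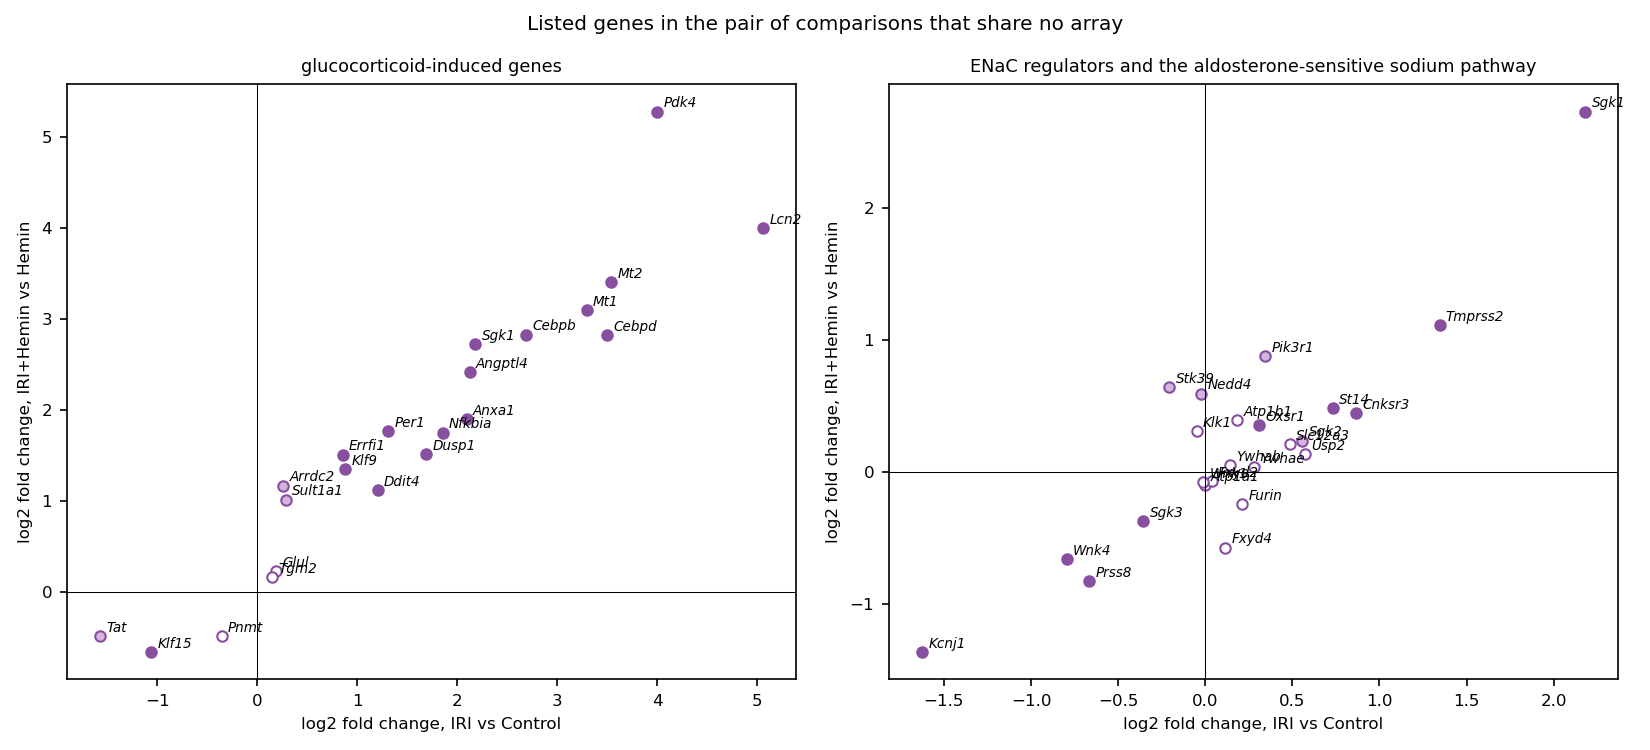
Log2 fold change in IRI vs Control (horizontal axis) against IRI+Hemin vs Hemin (vertical axis), comparisons without a shared array, for the tested genes of 2 lists, which share Sgk1. Each point is a gene, filled where it was called in both comparisons, pale where in 1 and open where in neither. The glucocorticoid-induced genes lie mostly in the upper right, and the channel regulators lie on both sides of 0.

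The other 3 lists were counted in IRI vs Control, where 17.1% of all genes were higher and 33.9% lower. Of 17 receptor chaperones and cochaperones, 3 were higher and 4 lower, led by the heat shock genes Hspa1a (1.23 ± 0.33) and Hspa1b (1.10 ± 0.35), whose near-identical sequences the probes may not separate, with Ptges3 (0.29 ± 0.11), and on the lower side by Ppp5c (-0.52 ± 0.11), Fkbp4 (-0.51 ± 0.14) and Ahsa1 (-0.42 ± 0.16). Of 11 coregulators, 3 were higher, among them Nrip1 (0.96 ± 0.12) and Ncoa3 (0.61 ± 0.10), and 2 lower (Ppargc1a, -0.87 ± 0.19; Med1, -0.31 ± 0.11). Of 12 genes of steroid handling, 5 were higher and 2 lower. Among those detected on each of the 8 arrays, the largest rises were Srd5a2, a steroid reductase (1.89 ± 0.20), Hsd17b2 (1.06 ± 0.24) and H6pd, which supplies the cofactor of Hsd11b1 (0.95 ± 0.22), and Akr1c18 (-1.39 ± 0.49) and Hsd3b2 (-1.15 ± 0.23) fell.

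The tissue carried markers of the cells that use these genes. Each of the 8 listed markers of principal cells was detected on every array, and their summed level on the log2 scale ranged from 5.15 to 5.49 in Control and 5.35 to 5.89 in IRI, with 5.71 to 6.31 in the IRI+Hemin arrays, 5.60 to 6.60 in the IPC+IRI arrays and 5.65 to 6.16 with hemin alone. Such a sum follows its brightest genes. Of these, Aqp2 averaged 3.07 in Control and 4.3 in IRI, Aqp3 3.95 and 4.08, and Fxyd4 3.26 and 3.37. By calls the 8 markers had no single direction in IRI vs Control. There 1 was higher (17.1% of all genes) and 2 were lower (33.9%), and the median change was -0.02. One of the 8 is Hsd11b2 itself, which fell while Aqp2 rose in IRI vs Control (1.23, adjusted p = 0.00252) and the vasopressin receptor Avpr2 fell (-1.68, adjusted p = 7.67e-05). Proximal tubule markers had summed levels of 8.51 to 8.69 in Control and 8.13 to 8.56 in IRI, with 7.73 to 8.12 in the IRI+Hemin arrays, 7.77 to 8.14 in the IPC+IRI arrays and 8.29 to 8.45 with hemin alone. In IRI vs Control, 3 of 7 proximal tubule, 3 of 6 intercalated cell, 1 of 4 thick ascending limb and 1 of 4 podocyte markers were lower (33.9% of all genes) and none higher, 1 of 4 distal convoluted tubule markers and 3 of 4 injury markers were higher (17.1% of all genes) and none lower, and of 5 tested leukocyte markers 1 was higher and 1 lower. Summed leukocyte markers reached 2.24 to 4.25 in IPC+IRI, against 1.19 to 2.08 in Control. Of 6 adrenal cortex markers on the array, the defining enzymes Cyp11b2 and Cyp11a1 were not well above background on any array, and Cyp21a1 was on 0 to 3 arrays a group. The summed level of the 6 markers was 0.41 to 1.92 in the IRI+Hemin arrays and between -0.54 and 0.57 on all others. That sum follows 1 gene, Akr1b7, which averaged 1.09 in IRI+Hemin, where Nr5a1 was next at -3.19. Of 3 adrenal cortex markers tested, 2 were higher in IRI+Hemin vs IRI (26.3% of all genes), Akr1b7 (1.46, adjusted p = 0.00114) and the transcription factor Nr5a1 (1.46, adjusted p = 0.00189). Nr5a1 was lower in IRI than in Control (-1.08, adjusted p = 0.0112), and Star, called higher there, was well above background on 1 of 4 Control arrays, so no fold is given. The channel regulators Fxyd4, Kcnj1 and Slc12a3 and the glucocorticoid-induced Lcn2 also stand in these marker lists. The part of these cell types in the values of the 10 genes was not tested.

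By Pearson r of log2 expression over the 20 arrays, among 14531 genes detected on every one of them, the gene most like each member was Myo10 for Scnn1a (r = 0.897), Dennd5a for Scnn1b (0.676), Flii for Scnn1g (0.911), Bivm for Nr3c1 (0.961), Crygd for Nr3c2 (0.921), Slc6a9 for Hsd11b1 (0.801), Kat2a for Hsd11b2 (0.934), Stc1 for Nedd4l (0.953), Zfp295 for Tsc22d3 (0.867) and Sema7a for Fkbp5 (0.925). Among the members, Nr3c1 with Nr3c2 (0.85), Nr3c2 with Hsd11b2 (0.82) and Nr3c1 with Hsd11b2 (0.80) were the most alike, followed by Tsc22d3 with Fkbp5 (0.74). The arrays share slides within groups, so these are descriptions without a test.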

How the data were processed

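RNA of 20 mouse kidneys was hybridised to Agilent arrays, 4 in each of the 5 groups, with groups taken from the labels. The intensity values are the deposited scanner output of the authors, made with Agilent Feature Extraction 9.5.3.1 per the file headers, with background subtracted on each array and no scaling between arrays. The deposited log2 matrix of the authors holds the same signal, with 100% of its values within 0.001 of its log2 and 18.1% blank.

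Flagged spots were removed (0.208% of 43379), spots of 1 probe averaged, signals divided by the array's 75th percentile (146.7 to 357.9), probes of a gene name averaged on the linear scale, and log2 taken. That average follows the brightest probe, and the values of single probes were therefore fitted as well. Between 57.4% and 67.4% of genes were well above background per array. The number of arrays limits the precision: the smallest exact p for 4 against 4 is 0.029.

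A gene was tested with at most 1 missing value and at least 3 of 4 arrays of either group well above background. The fit used limma 3.58.1 in R 4.3.3 on 5 group means with 15 residual degrees of freedom, two-sided, with Benjamini-Hochberg adjustment per comparison and no fold threshold. The study's own test, SAM, was not run. On simulated data for IRI vs Control with 17712 genes, the fit recovered 72% of genes with an absolute log2 fold change of 1 and 97% of genes with 2. The 10 genes and the gene lists were chosen with earlier results of these data known. Of the lists, Sgk1, Per1, Klf9 and up to 3 called genes in each direction in IRI vs Control were named, those with the largest change and well above background on all 8 arrays, and 1 nearest gene per member. The value of 1 gene that this rule names is not reported here. Marker genes named outside this rule were chosen after their values were seen. Where nothing says otherwise arrays are separate mice, so p-values measure the spread between these arrays only. The other alternatives were background correction, scaling, the summary over probes, filters, and leaving out each array.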

Additional observations from a re-analysis of the deposited data

Results flagged for a closer look

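Of the 50 sets of 4 arrays (10 genes in 5 groups), 4 had an array whose gap to the others exceeded the 95% critical value of Dixon's test, and chance gives about 1 in 20 such sets. Scnn1b read 1.10 in Hemin replicate 2, above 0.71 to 0.77 in the other Hemin arrays. Scnn1g read 2.02 in IRI replicate 4, above 1.79 to 1.80 in the others. Hsd11b1 read 4.33 in IRI+Hemin replicate 4, above 3.44 to 3.50, and 4.32 in Hemin replicate 3, above 3.53 to 3.65. No difference between mice with and without hemin in the response to injury was called for any of the 10 genes.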

How the results depend on the processing

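When each array was left out in turn, limma called 4 to 6 of the 10 genes higher and 2 to 3 lower in IRI vs Control, 4 to 5 and 1 to 3 in IRI+Hemin vs Hemin, 1 to 1 and 1 to 3 in IRI+Hemin vs IRI, 0 to 0 and 2 to 5 in IPC+IRI vs IRI, 2 to 4 and 3 to 3 in IPC+IRI vs Control, and 0 to 0 and 1 to 3 in Hemin vs Control. The deposited log2 matrix, scaled by the 75th percentile of the values it holds, gave 2 higher in IRI vs Control, 3 higher and 1 lower in IRI+Hemin vs Hemin, 0 lower in IRI+Hemin vs IRI, 1 lower in IPC+IRI vs IRI and 1 lower in Hemin vs Control. Without normalization between arrays the counts were 1 lower in IRI vs Control, 1 higher and 1 lower in IRI+Hemin vs Hemin, 0 lower in IRI+Hemin vs IRI and in IPC+IRI vs IRI, 5 higher in IPC+IRI vs Control, and 2 higher and 0 lower in Hemin vs Control, while the median of all genes moved to 0.45, 0.41, 0.35 and 0.62 in IRI+Hemin vs IRI, IPC+IRI vs IRI, IPC+IRI vs Control and Hemin vs Control. Normexp gave 0 lower in IRI vs Control and in IRI+Hemin vs Hemin, 1 higher and 1 lower in IPC+IRI vs IRI, and 1 higher and 1 lower in Hemin vs Control. Calls over all genes also fell: normexp called 1397 genes lower in IRI vs Control and 2295 in IRI+Hemin vs Hemin, where the reported fit called 6004 and 5195. Without normalization 619, 603 and 490 genes were lower in IRI+Hemin vs IRI, IPC+IRI vs IRI and Hemin vs Control, against 3231, 3152 and 3269. Quantile normalization and the 3'-most probe each gave 1 lower in IRI+Hemin vs Hemin. In Hemin vs Control quantile normalization and the percentile over bright probes each gave 5 lower, and the 3'-most probe, an alternative chosen after seeing the data, gave 1. Nr3c2 was not tested with the 3'-most probe, which is dim, nor in the deposited matrix except in IRI+Hemin vs Hemin, so the counts without it are over 9 genes. The mean of log2 over probes gave 5 lower in IRI+Hemin vs IRI. The methods' t-test after adjustment gave 1 lower in IRI+Hemin vs Hemin, 0 lower in IPC+IRI vs IRI and 1 higher in IPC+IRI vs Control, and left 0 higher in IPC+IRI vs IRI and Hemin vs Control with or without adjustment. The cause was not tested for any of these.

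Among single genes, 6 values that were called in the reported fit or in the alternative changed sign. Uncalled values near 0, such as those of Scnn1b, changed sign under further settings. Nr3c2 gave 0.05 in IRI vs Control with normexp and 0.05 in Hemin vs Control with the mean of log2 over probes. Nr3c1 in Hemin vs Control gave 0.24 without normalization and 0.01 with the brightest or the 3'-most probe. Scnn1a in IPC+IRI vs Control gave -0.85 with the mean of log2 over probes. The cause was not tested.

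Replicate numbers name arrays only: over 40 same-numbered pairs, deviations from group means correlated at -0.38 to 0.21 (median -0.03). With a replicate block the counts were 5 higher and 3 lower in IRI vs Control, 2 lower in IPC+IRI vs IRI and 2 lower in Hemin vs Control, where Scnn1a (-0.40, adjusted p = 0.0513) and Nr3c1 (-0.33, adjusted p = 0.0524) lost their calls, and no other call changed. A random block for slide was not run, because each slide holds 1 group. Dim probes such as those of Nr3c2 limit what the signal over background can show.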
